A study of Mus musculus with 24 samples.

Results

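The major histocompatibility complex (MHC) region of mouse chromosome 17 was examined as a set of promoter fragments in promoter capture Hi-C, an assay that lists the DNA fragments found in contact with captured promoters. The members were all called pairs with at least 1 bait, a captured HindIII fragment, in a 2.2 Mb stretch of chromosome 17 (mm10), whose outermost baits span chr17:34023505-36032933. This rule used position only and no measured value. It held 92 of the 22203 baits of the series, 7068 of its 1242966 distinct called pairs and 23964 of the 4021863 pairs listed over its 24 libraries. A bait was any fragment written in the first position of a pair in at least 1 library, and a pair was counted once whichever end was written first.

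The study profiled cranial neural crest cells of mouse embryos in 12 groups of 2 libraries each. Wild-type (WT) progenitors were taken at embryonic day E8.5, and WT cells at E11.5 from the tissues labelled FNP, Mx, Md and PA2. Ezh2cKO cells, which lack Ezh2 conditionally, came from the same 4 tissues at E11.5. Cells of Hoxa2PTE-36kb-del embryos came from Md and PA2, and those of Hoxa2PTE-42kb-del embryos from PA2 alone, all at E11.5. Both deletions are named for Hoxa2, a homeobox gene that lies outside chromosome 17. Crest cells were collected by fluorescence sorting from Ezh2cKO embryos and from embryos labelled Wnt1::Cre;ROSARFP, a Cre driver active in the neural crest with a red reporter. The sources used here do not say how cells of the deletion embryos were sorted, which strain background each mouse line has or how many embryos were pooled. Each library carried a batch label of its own. The titles of the 42kb libraries give only a number where all others name a biological replicate, although their descriptions use the same term, so p-values measure the spread between these libraries, which may be partly technical.

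The MHC region packs together genes of very different roles. MHC class I genes encode molecules that present peptides from inside the cell, class II genes encode molecules that present peptides taken up by immune cells, and the genes between them encode complement proteins, cytokines of the tumour necrosis factor family, heat shock proteins, chromatin regulators and general housekeeping proteins. The region is also among the most variable between mouse strains. Ezh2 encodes the methyltransferase of a Polycomb complex, which keeps many developmental genes with CpG-rich promoters silent and can hold such promoters together in space. Contacts do not measure expression, and no expression value was used here.

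The RefSeq promoter sequences (250 bases before to 50 bases after the start, build GRCm38.p6) of 4 genes on which the results below turn are shown first, each 5′ to 3′ on its own strand. Capitals mark the HindIII site AAGCTT and the CCAAT box, searched on both strands as CCAAT and ATTGG. A match is a description of the letters and not a bound site.
Brd2, chr17:34122558-34122857, minus strand, on the bait whose pairs with other baits were missing from 36kb libraries: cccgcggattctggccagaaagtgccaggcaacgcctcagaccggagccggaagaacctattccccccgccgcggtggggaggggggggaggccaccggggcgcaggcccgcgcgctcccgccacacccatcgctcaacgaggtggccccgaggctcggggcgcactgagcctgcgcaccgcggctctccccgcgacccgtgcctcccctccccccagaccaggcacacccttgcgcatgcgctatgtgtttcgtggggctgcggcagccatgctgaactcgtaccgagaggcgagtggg
H2-D1, chr17:35262844-35263143, plus strand, on a bait with contacts to chromosome 14 that differed between genotype labels: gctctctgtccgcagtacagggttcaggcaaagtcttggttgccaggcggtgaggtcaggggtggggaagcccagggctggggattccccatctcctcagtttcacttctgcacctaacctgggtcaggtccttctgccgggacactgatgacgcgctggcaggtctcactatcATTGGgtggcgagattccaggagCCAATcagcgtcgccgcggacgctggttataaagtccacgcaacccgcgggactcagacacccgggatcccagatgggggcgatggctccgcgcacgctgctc
H2-Eb1, chr17:34305617-34305916, plus strand, on a class II bait with few contacts: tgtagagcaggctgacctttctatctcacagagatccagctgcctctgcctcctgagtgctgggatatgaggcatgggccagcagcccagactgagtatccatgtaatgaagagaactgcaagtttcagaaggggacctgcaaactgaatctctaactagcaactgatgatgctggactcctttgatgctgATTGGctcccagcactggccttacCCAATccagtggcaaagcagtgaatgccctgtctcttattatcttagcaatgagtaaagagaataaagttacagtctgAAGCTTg
Ddr1, chr17:35704550-35704849, minus strand, 1 of its listed starts, cut by a HindIII site: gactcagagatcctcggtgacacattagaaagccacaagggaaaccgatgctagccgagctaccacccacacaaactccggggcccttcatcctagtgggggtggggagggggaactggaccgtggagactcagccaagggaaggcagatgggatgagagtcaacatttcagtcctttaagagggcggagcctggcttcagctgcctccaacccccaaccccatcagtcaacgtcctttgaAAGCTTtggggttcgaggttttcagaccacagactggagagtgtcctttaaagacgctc
The Brd2 window held 32 CpG and neither motif, and it overlaps the window of H2-DMa, a class II peptide-loading gene that starts on the opposite strand at chr17:34122582-34122881. The H2-D1 window held 19 CpG and both orientations of the CCAAT box. The H2-Eb1 window held 0 CpG, both orientations of the CCAAT box and a HindIII site at 34305910 to 34305915, so its bait (chr17:34303337-34305910) ends inside the window. The HindIII site of Ddr1 at 35704603 to 35704608 divides that promoter between 2 baits, chr17:35695661-35704603 with all listed starts of the gene and chr17:35704604-35710987 with most of the bases before it.

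Among all 122 RefSeq promoters on the 92 baits, 6 held a HindIII site (4.92%), against 7.45% of 32851 promoters genome-wide. The CCAAT box was found in 50 (41.0%), against 37.4%, and in 10 of the 12 class I and class II promoters (83.3%). The promoters of the region had a median GC content of 59% and 12.5 CpG, against 52.7% and 7 over all promoters. Of the 92 baits, 69 held a transcription start, 13 only an outer boundary of an annotated gene and 10 neither. The latter 13 are named here by that gene. None crossed an edge of the region.

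The libraries listed 142284 to 190343 pairs each. Read depth is unknown, since the files give called pairs with a score and no counts. Pairs of 2 baits were written with the higher coordinate first in 100% of cases in the 18 WT and Ezh2cKO files, against 50.8% to 51.3% in the 6 deletion files, so a difference in pairs of 2 baits between deletion and WT cannot be told apart from the way the files were made. Markers fixed for cell types gave cranial mesenchyme baits (4 of 6 markers matched: Twist1, Prrx1, Tfap2a and Msx1) with 17.9 to 45.6 cis calls in E11.5 WT. The single immune marker matched of 5, Ptprc, had 2.5, endothelial baits (2 of 3) 1 to 9.13, epithelial baits (2 of 3) 1.38 to 9.62 and neuronal baits (2 of 3) 0.5 to 1.62.

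The region was dense in contacts. Its baits had a median of 10.5 called cis pairs a library, from 0.25 to 46.5, against a median of 4.5 over all 22203 baits. A pair of 2 baits counts for both of them. Such pairs made up 37.1% of the pairs of the region in E11.5 WT libraries, against 14.3% of all pairs, which raises the counts of the region more. An average of 5 calls or more was reached by 76 of the 92 baits, and by 10344 of all baits. Pairs called in all 24 libraries made up 2.05% of the pairs of the region (145 pairs) and 1.22% of all pairs, and pairs called in 1 library only 62.9% and 63.1%. Over the 69 baits with a start, the Spearman correlation of mean calls in E11.5 WT with the CpG count of the richest promoter was 0.48, and over all 92 baits it was 0.10 with fragment length. These correlations are across fragments that share libraries and are given as a description.

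**Figure D1:**
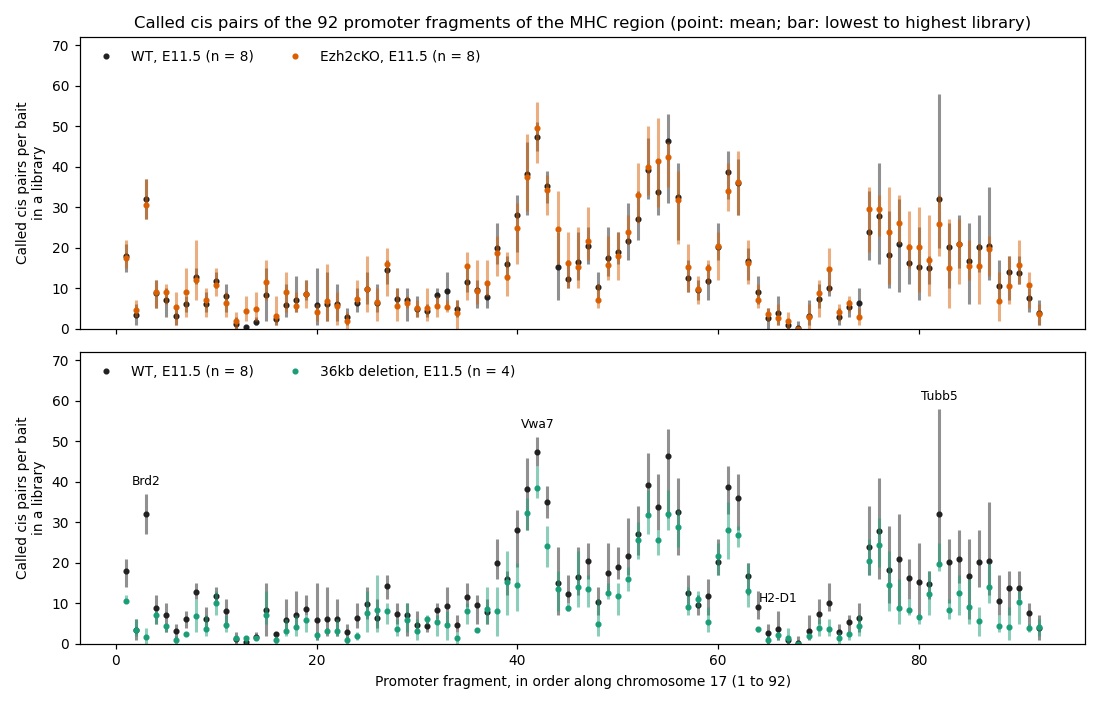
Called cis pairs per bait and library for the 92 promoter fragments in order along chromosome 17, with points for group means and bars from the lowest to the highest library. Calls are highest at Vwa7 (47.2 in E11.5 WT) and lie near 0 at the class I genes H2-Q2 and H2-Q10. The Brd2 fragment stands at a mean of 32 calls in E11.5 WT and 1.75 in the 36kb libraries.

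Of the gene lists, class I and class II baits had the lowest median levels, and heat shock baits the highest. In E11.5 WT libraries the 4 class I baits had a median of 2.38 calls and the 9 class II baits 3.38. The 18 housekeeping baits had 15.3, the 17 baits of signalling, matrix and adhesion genes 16.2, the 12 of tumour necrosis factor and inflammatory genes 16.4 and the 3 heat shock baits 19.9. Chromatin and transcription regulators had 13 over 14 baits, antigen processing genes 6.12 over 3, butyrophilin-like genes 5.38 over 2 and the complement and steroid 21-hydroxylase genes 4.75 over 5. A bait counts in the lists of all genes with a start or an outer boundary on it. Lsm2, for example, is among the heat shock baits through a boundary of Hspa1l. Most class I genes of the list (36 genes, 4 baits) have no bait under their name here.

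Among class I genes, H2-D1, a classical peptide-presenting molecule, had 3.75 ± 2.12 calls (SD, n = 8) in E11.5 WT, from 1 to 8. H2-T23, a non-classical gene, had 3.88 ± 1.89, H2-Q2 1 ± 0.756 and H2-Q10 0.25 ± 0.707. The ranges of H2-D1 and H2-T23 overlapped. Among class II genes, the bait at a boundary of H2-Ab1, without a listed start, had 8 ± 2.20 calls. The bait of H2-Aa, its partner chain, had 1.12 ± 1.25, and that of H2-Eb1 0.5 ± 0.535. The baits of Psmb8 and Psmb9, subunits of the immunoproteasome, had 12.8 ± 1.67 and 6.12 ± 1.25. Tap2 is part of the peptide transporter, and its partner Tap1 starts on the Psmb9 bait. The bait at a boundary of Tap2, without a listed start, had 6 ± 1.51.

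The highest level was that of Vwa7 (chr17:35009086-35021922) at 47.2 ± 2.43 calls in E11.5 WT, with every library between 44 and 51. An unnamed bait at chr17:35160353-35163094, next to Prrc2a, had 46.4 ± 7.15, and Csnk2b, a subunit of casein kinase, 39.1 ± 5.41. These 3 ranges overlapped. Tubb5, a tubulin gene, varied from 20 to 58 calls, with a mean of 32.1 ± 11.1. Of the regulators of development, the bait of Ring1, a Polycomb protein that shares the fragment with Rxrb and Col11a2, had 18 ± 2.27, that of Ehmt2, a histone H3 methyltransferase, 11.6 ± 2.39, Notch4, a receptor of endothelium, 8.62 ± 1.69 and Pbx2, a homeodomain cofactor, 6.12 ± 3.76. The bait that holds Pou5f1, the pluripotency factor, had 3.12 ± 1.81, and the bait at a boundary of C2, a complement gene, 4.75 ± 1.49.

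Contacts of the region were mostly local. In E11.5 WT, 35.4% ± 0.914 (SD, n = 8) of its pairs spanned under 100 kb, 43.3% ± 0.937 spanned 100 kb to 1 Mb, 20.4% ± 1.74 spanned 1 Mb or more and 0.990% ± 0.122 joined another chromosome. Over all baits in the same libraries these shares were 9.73%, 57.6%, 29.5% and 3.17%. The median cis distance was 150 kb in the region and 459 kb over all baits, with no overlap between the 2 sets of 8 library values. Both ends lay inside the 2.2 Mb for 78.8% ± 2.02 of pairs.

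**Figure D2:**
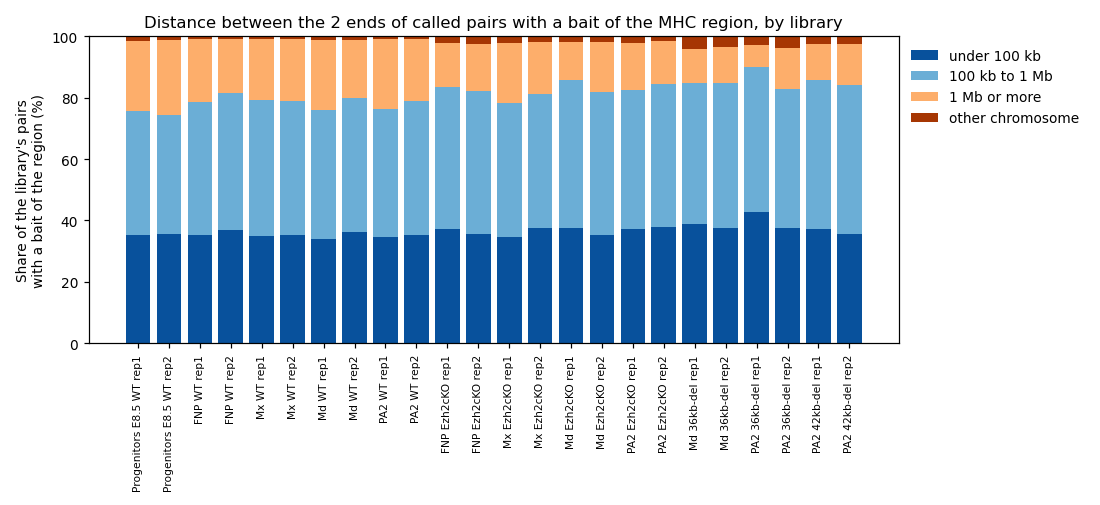
Share of each library's pairs with a bait of the region, in percent, by the distance between the ends. Pairs of 1 Mb or more take 17.5% to 22.8% in the 8 E11.5 WT libraries and 7.10% to 13.3% in the 4 36kb libraries, and pairs with another chromosome 0.755% to 1.19% and 2.97% to 4.06%.

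The share of pairs of 1 Mb or more differed by genotype label. It was 23.7% ± 1.33 (n = 2) at E8.5, 20.4% in E11.5 WT, 15.5% ± 2.11 (n = 8) in Ezh2cKO, 10.9% ± 2.67 (n = 4) in 36kb and 12.6% ± 1.03 (n = 2) in 42kb libraries. The 36kb and 42kb ranges lay below all WT libraries, while Ezh2cKO (12.3% to 19.4%) overlapped E11.5 WT (17.5% to 22.8%). Over all baits the shares at E11.5 were 29.5% in WT, 26.5% in Ezh2cKO, 24.6% in 36kb and 22.9% in 42kb libraries. A lower share was thus not particular to the region, but the gap to E11.5 WT was wider in the region for each of these labels.

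Distant pairs met a few blocks of the same chromosome. Partners at 24 to 25 Mb took 59.6 ± 4.63 calls a library in E11.5 WT (52 to 67) and 40.8 ± 8.80 in Ezh2cKO (29 to 51), so these groups did not overlap. The 36kb libraries had 11, 14, 4 and 22, the 42kb libraries 27 and 35, and the E8.5 libraries 39 and 56. Named partners there held the starts of E4f1 and Pgp, of Eci1, and of Tsc2 and Nthl1. A block at 56 to 57 Mb had 34.9 ± 4.58 calls in E11.5 WT and 15.5 ± 6.14 in 36kb libraries, again without overlap (30 to 43 against 8 to 21). A block at 46 to 47 Mb was called mainly at E8.5, with 35 calls in both libraries against 2 to 12 in E11.5 WT, 2 to 10 in Ezh2cKO and 2 to 8 in the deletion libraries. The promoter fragment of Atat1, Mrps18b and Ppp1r10 reached out most often, with 12.2 pairs of 1 Mb or more a library in E11.5 WT, 60.1% of its cis pairs. For Abcf1, a translation factor gene, that share was 70.3%. These blocks were picked after their values were seen.

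The first tested contrast asked how contacts changed from E8.5 to E11.5 in WT cells. Counts were compared with limma on log2 of (cis calls + 0.5) per library total over 10344 baits that averaged 5 calls or more, 76 of them in the region, with Benjamini-Hochberg adjustment over all baits and a threshold of 0.05. Of the 76, 1 rose and 8 fell, against 18.6% of all tested baits that rose and 10.3% that fell. The median log2 difference was -0.30 in the region and 0.03 over all baits, and 54 of the 76 were below 0. The share that rose was thus far under the background, and the share that fell near it.

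Ehmt2 rose. It had 5 calls in both E8.5 libraries and 10, 10, 9, 13, 15, 9, 13 and 14 in the E11.5 WT libraries, a log2 difference of 1.00 ± 0.27 (SE, limma adjusted p = 0.00742). All E11.5 libraries lay above both E8.5 libraries. Ring1 fell from 26 and 28 calls to between 14 and 21, by 0.69 ± 0.20 on the log2 scale (limma adjusted p = 0.0137), again without overlap. Btnl2, a butyrophilin-like gene of the immunoglobulin family, had 15 and 16 calls and then 2 to 15, a difference of -1.15 ± 0.34 (limma adjusted p = 0.0158), and the groups met at 15. Ltb, which encodes lymphotoxin beta, had 15 and 14 calls and then 7 to 12 (-0.72 ± 0.24, limma adjusted p = 0.0303).

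Further falls included baits of the complement, housekeeping and Ly6 genes. A bait at a boundary of Stk19 had 15 and 9 calls at E8.5 and 3 to 8 later (-1.38 ± 0.44, limma adjusted p = 0.0235). It averaged 4.82 calls without the E8.5 libraries, so it entered the test only through the group where it is high, and its call carries no weight. The bait of Atat1, Mrps18b and Ppp1r10 fell by 0.77 ± 0.23, 1 Gnl1 bait by 0.94 ± 0.32, Gm52318 by 0.53 ± 0.14 and Ly6g5b by 0.49 ± 0.18 (limma adjusted p between 0.00789 and 0.0485). Regulators of chromatin and transcription gave 1 rise and 2 falls among 13 tested baits, tumour necrosis factor and inflammatory genes 2 falls among 12, and housekeeping genes 2 falls among 16. None of the 4 tested class II, 3 antigen processing or 3 heat shock baits passed. The E8.5 group has 2 libraries, and the calls rest on them: 0 baits passed without replicate 1 of E8.5 and 4 without replicate 2, where the lone library is assumed to vary like the other groups.

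No bait of the region passed the limma test for any difference between the 4 WT tissues at E11.5, against 0.271% of all tested baits, and 3 of the 76 had an unadjusted p under 0.05, against 9.79% of all baits. The effect of Ezh2cKO did not pass as different between tissues for any of the 76 either, against 0.00967% of all baits, with 4 at an unadjusted p under 0.05, against 5.78% of all baits.

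**Figure D3:**
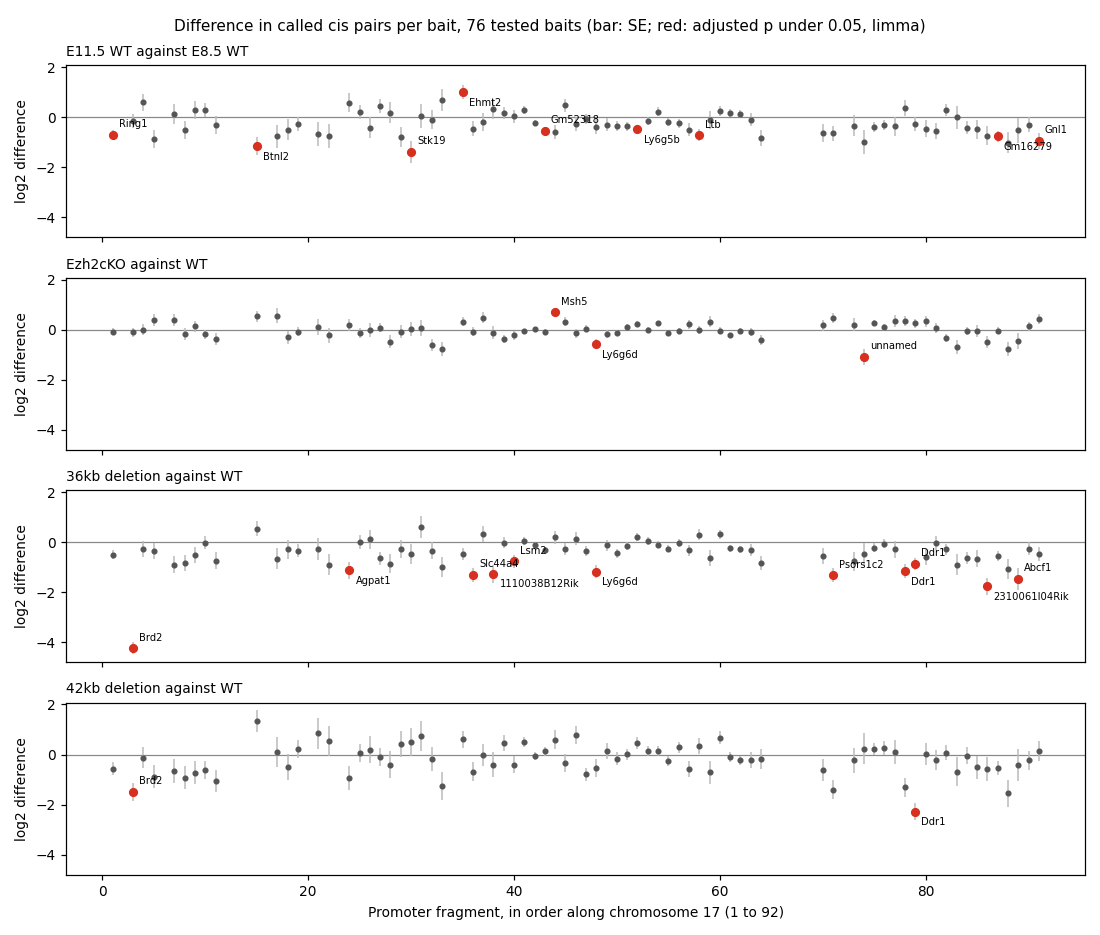
Log2 difference in called cis pairs per bait for the 76 tested baits in order along chromosome 17, with bars for the standard error and red points for an adjusted p under 0.05 in limma. The deletion contrasts carry the largest falls, at Brd2 (-4.24 in 36kb) and Ddr1 (-2.28 in 42kb).

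Loss of Ezh2 moved few baits of the region. Of the 76 tested, 1 rose and 2 fell, against 5.38% and 5.39% of all tested baits, and the median log2 difference was -0.04 against 0.01. Msh5, a meiotic gene, rose. It had 18, 11, 14, 21, 7, 24, 12 and 14 calls in WT and 28, 34, 26, 21, 24, 31, 16 and 17 in Ezh2cKO, a difference of 0.69 ± 0.19 (SE, limma adjusted p = 0.0206), with overlap between the groups. An unnamed bait at chr17:35599404-35605653 fell from 6.25 ± 2.71 to 2.88 ± 1.55 calls (-1.09 ± 0.31, limma adjusted p = 0.0254), but it averaged 4.62 without the E11.5 WT libraries and so entered the test only through the group where it is high. Ly6g6d, of the Ly6 family of surface proteins, fell from 10.2 ± 2.71 to 7 ± 2.33 (-0.57 ± 0.18, limma adjusted p = 0.0471). Both falls had overlapping ranges.

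These 3 calls depended on single libraries. Leaving out 1 library at a time gave 0 to 4 baits past the threshold, with 0 without FNP WT replicate 2 and 1 without any of Mx WT replicates 1 and 2, Md WT replicate 1, FNP Ezh2cKO replicate 1 and Md Ezh2cKO replicate 1. Polycomb's own Ring1 had 18 ± 2.27 calls in WT and 17.5 ± 2.88 in Ezh2cKO (-0.08 ± 0.13, limma adjusted p = 0.747). None of the 13 regulator baits, 14 signalling baits, 16 housekeeping baits or 4 class II baits tested passed.

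Class II genes with too few calls for this test are given by level. H2-Eb1, which encodes a class II beta chain, had 0, 1, 0, 0, 0, 1, 1 and 1 calls in E11.5 WT and 5, 4, 4, 3, 2, 8, 2 and 6 in Ezh2cKO. All Ezh2cKO libraries lay above all E11.5 WT libraries, while the E8.5 libraries had 2 and 1, the 36kb libraries 2, 0, 2 and 2, and the 42kb libraries 2 and 4. H2-Eb2, a neighbour chosen after its values were seen, had 1.62 ± 0.916 calls in WT and 4.75 ± 2.82 in Ezh2cKO, with overlapping ranges. Outside the Ezh2cKO libraries H2-Eb1 averaged 1.19 calls and H2-Eb2 1.81, so a filter of 2 calls would admit both only through the group where they are high, and no test is given for them.

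The 36kb libraries held fewer pairs of the region. They listed 616 and 793 in Md and 606 and 841 in PA2, against 1011 to 1053 in the 4 WT libraries of these tissues. As a share of the library this was 0.474% ± 0.0664 (n = 4), against 0.598% ± 0.0120, without overlap. For pairs with an end that is no bait, which the order of writing does not touch, the shares were 0.319%, 0.427%, 0.348% and 0.458% in 36kb and 0.433% ± 0.00649 in WT, and there the groups overlapped.

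Of the 76 tested baits 11 fell and 0 rose with the 36kb deletion, against 5.65% and 5.46% of all tested baits. An unadjusted p under 0.05 in limma was found for 28 of the 76 and for 27.3% of all tested baits. The median difference was -0.35 against 0.04 over all baits, and 64 of the 76 were below 0. The falls were spread over roles: 2 of 13 chromatin and transcription baits, 2 of 14 signalling baits, 3 of 16 housekeeping baits, 2 of 3 heat shock baits, 1 of 12 tumour necrosis factor and inflammatory baits, and 1 of 4 class II baits, which is the Brd2 fragment that also starts H2-DMa. The heat shock falls were the bait of Hspa1b and that of Lsm2, which is listed through a boundary of Hspa1l and counts under housekeeping too. The chromatin and transcription falls were Brd2 and Slc44a4, the latter listed through a boundary of Ehmt2. None of the 3 antigen processing or 4 complement baits tested passed.

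The fall at Brd2 was the largest among the 76 baits. Brd2 encodes a bromodomain protein that binds acetylated histones. Its bait (chr17:34117600-34125398) had 31 and 31 cis calls in Md WT and 27 and 31 in PA2 WT, and 0, 0, 4 and 3 in the 36kb libraries, a log2 difference of -4.24 ± 0.24 (SE, limma adjusted p = 6.82e-10). With 2 libraries at 0 the size depends on the pseudocount, and it was -3.68 with a pseudocount of 1. The 18 WT and Ezh2cKO libraries all had 27 to 37 cis calls.

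The missing pairs were those with other baits. In E11.5 WT, 14 partners were called with the Brd2 bait in at least 7 of 8 libraries, and all 14 were baits, 13.3 to 1714 kb away. They included Tap2, H2-Ob, Gpsm3, Pbx2, Ager, Agpat1, Tnxb, Ehmt2 and Tubb5. In Ezh2cKO 9 of the 14 were called in at least 7 of 8 libraries, in the 36kb libraries 0 of them in any library. In the 42kb libraries 10 were called in replicate 1 and 0 in replicate 2. Pairs with fragments that are no bait numbered 0 to 5 in WT libraries and 0, 0, 4 and 3 in the 36kb libraries, so they overlapped. Over the genome, 262 baits had at least 10 calls to other baits in each of the 18 WT and Ezh2cKO libraries, and the Brd2 bait alone had 0 or 1 such calls in at least 5 of the 6 deletion libraries, a rule set after its values were seen. Both orders of writing were searched: the 36kb files held 0 cis pairs of the Brd2 bait with another bait in either order, and 42kb replicate 2 held 1.

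The fragments beside it were also called in the deletion libraries. The fragment before it, chr17:34116191-34117599, had 10 ± 1.93 listed pairs in E11.5 WT, 7 ± 2.16 in 36kb and 8 and 13 in 42kb libraries. The fragment after it, chr17:34125446-34134112, had 0 or 1 in each library except the 42kb libraries, with 2 and 7. Further on, chr17:34135502-34137331 had 2.62 ± 1.92 in E11.5 WT, 7.62 ± 3.29 in Ezh2cKO and 6 ± 2.45 in 36kb libraries. Whether a sequence difference of the mouse lines at this fragment took part in the loss was not tested.

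**Figure D4:**
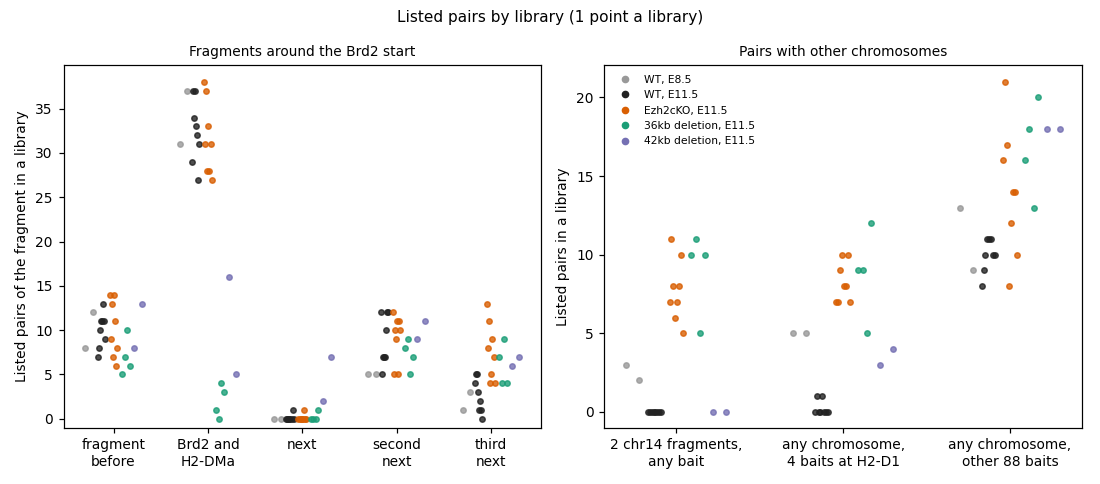
Listed pairs per library, 1 point each, for the Brd2 fragment and its neighbours (left) and for pairs of the region with other chromosomes (right). The Brd2 fragment has 27 to 38 pairs in 18 libraries and 0 to 4 in the 4 36kb libraries, and pairs with 2 chromosome 14 fragments number 0 in the 8 E11.5 WT and both 42kb libraries.

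Other baits that fell with the 36kb deletion did so by less. Slc44a4, a choline transporter-like gene whose fragment also holds a boundary of Ehmt2, had 12, 10, 11 and 10 calls in WT and 3, 4, 3 and 4 in 36kb libraries, without overlap (-1.30 ± 0.27, SE, limma adjusted p = 0.00438). The bait at the boundaries of 2310061I04Rik and Atat1 had 17, 25, 28 and 15 against 2, 6, 5 and 9 (-1.77 ± 0.34, limma adjusted p = 0.00246). Psors1c2, an epidermal gene, had 12, 10, 15 and 8 against 6, 4, 2 and 3 (-1.32 ± 0.27, limma adjusted p = 0.00452). In all 3 baits every 36kb library lay below every WT library.

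Ddr1 encodes a collagen receptor kinase, and both its fragments fell. The one with its starts had 24, 19, 23 and 19 calls in WT and 5, 16, 6 and 8 in 36kb libraries (-1.17 ± 0.28, limma adjusted p = 0.0105). The one beyond the HindIII site printed above had 14, 15, 21 and 21 against 7, 11, 7 and 8 (-0.86 ± 0.25, limma adjusted p = 0.0314). Neither pair of ranges overlapped, but the second call was lost in 8 of 18 alternatives (limma adjusted p 0.00756 to 0.123). The remaining falls were those of Abcf1 (-1.47), the bait of Hspa1b, a stress-induced chaperone (-1.26), Ly6g6d (-1.18), 1 of 2 Agpat1 baits (-1.13) and Lsm2, an RNA-binding gene (-0.77), with limma adjusted p between 0.00631 and 0.048. Hspa1a, the twin of Hspa1b, had a difference of -0.02 ± 0.22 (limma adjusted p = 0.962). This level hides a change of partners. By the presence rule given below, its pairs with Slc44a4 and Ehmt2 were lost and those with Lsm2 and Csnk2b gained. All are pairs of 2 baits, where a difference cannot be told apart from the way the files were made. Genes of the same family need not share a fragment, and Hspa1a and Hspa1b are near-identical copies, so reads may not be assigned with certainty to 1 of them.

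Named baits that did not pass are given by value. Psmb9 had 5, 8, 7 and 4 calls in WT and 3, 2, 3 and 2 in 36kb libraries (-0.90 ± 0.35, limma adjusted p = 0.0983), and Psmb8 had 11, 15, 11 and 15 against 5, 11, 8 and 3 (-0.82 ± 0.31, limma adjusted p = 0.0938). The bait that starts Tnf and Lta, cytokines of 1 family, had 10, 8, 7 and 12 against 3, 4, 5 and 9 (-0.64 ± 0.33, limma adjusted p = 0.21). Ring1 had 14, 17, 19 and 20 against 12, 10, 10 and 10 (-0.51 ± 0.18, limma adjusted p = 0.0752). The ranges of Psmb9 and Ring1 did not overlap, and those of Psmb8 and Tnf did.

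Leaving out 1 library at a time gave 6 to 15 baits past the threshold with the 36kb deletion. There were 6 without Md WT replicate 1 or Md 36kb replicate 1, and 7 without PA2 WT replicate 1, PA2 WT replicate 2 or PA2 36kb replicate 1. With pairs to fragments that are no bait only, an alternative chosen after the difference in the order of writing was seen, 1 bait passed, that of 2310061I04Rik and Atat1 (-2.12, limma adjusted p = 0.0196). The Ddr1 baits (-0.998 and -0.93, limma adjusted p = 0.0732 and 0.0892) and Psors1c2 (-0.93, limma adjusted p = 0.163) did not pass there, and Brd2 and Slc44a4 had too few such pairs to be tested. At a score of at least 10, 3 baits fell and 2 rose, D17H6S56E-5 (1.65) and Csnk2b (0.88).

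With the 42kb deletion in PA2, 2 of the 76 baits fell and 0 rose, against 1.02% and 0.822% of all tested baits. Under alternatives 2 baits rose, D17H6S56E-5 at a score of at least 10 (1.73, limma adjusted p = 0.0121) and Btnl2 with partners that are no bait only (2.11, limma adjusted p = 0.0326). The Ddr1 fragment beyond the HindIII site had 21 and 21 calls in PA2 WT and 6 and 2 in 42kb libraries (-2.28 ± 0.35, limma adjusted p = 0.00254). The Brd2 bait had 27 and 31 calls in PA2 WT and 16 and 5 in 42kb libraries (-1.49 ± 0.35, limma adjusted p = 0.0326), and the 42kb libraries differed from each other more than the 2 WT libraries did. The Brd2 call was lost without PA2 WT replicate 1 (adjusted p = 0.122), PA2 WT replicate 2 (0.167) or 42kb replicate 2 (0.312, where the difference was -0.67). The 36kb and 42kb contrasts share the PA2 WT libraries. Between the 2 deletions in PA2, 0 baits rose and 0 fell in limma, against 0.145% and 0.28% of all tested baits, with 9 of the 76 at an unadjusted p under 0.05, against 12.7% of all baits. For the Brd2 bait that difference was 1.19 ± 0.35 (limma adjusted p = 0.118).

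Single pairs were then read as present or absent by genotype, as a description. Of the 494 pairs of the region that could meet the rule, 5 were present in 7 or 8 of the 8 E11.5 WT libraries and in 0 or 1 of the 8 Ezh2cKO libraries (background 2.24% over all baits), and 11 the other way round (background 1.62%). The pairs lost from Ezh2cKO included Tubb5 with a fragment 46.9 kb away and Brd2 with Tnxb, which encodes a matrix protein. Among the 11 that were gained, 4 joined chromosome 14 and are described below. The Ring1 bait met chr17:35284629-35293876, 1254 kb away, in 8 of 8 Ezh2cKO, 0 of 8 E11.5 WT, 1 of 2 E8.5 and 3 of 4 36kb libraries. Ddr1 met chr17:35839769-35840657 in 8 of 8 Ezh2cKO and 1 of 8 E11.5 WT libraries, and Brd2 met chr17:34135502-34137331 in the same numbers.

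With the 36kb deletion 49 of 432 pairs were called in all 4 WT libraries of Md and PA2 and in 0 of 4 deletion libraries (background 5.59%), 14 of them with Brd2, and 25 the other way round (background 5.36%). Over both deletions, 25 of 414 pairs were lost (background 3.77%) and 18 gained (background 3.87%). Of the lost pairs, 39 of the 49 and 18 of the 25 joined 2 baits. For such pairs a difference cannot be told apart from the way the files were made. Among them were Vwa7 with Gm52318 and Prrc2a with Tnf, lost in both deletions. Both pairs were present in 8 of 8 E11.5 WT and 8 of 8 Ezh2cKO libraries. Hspa1a, D17H6S56E-5 and Ddah2 recurred among the gained pairs, such as Hspa1a with Lsm2 (12 kb away) and with Csnk2b (153 kb), in 6 of 6 deletion libraries and 0 of 8 E11.5 WT libraries. All 19 gained pairs of 2 baits in the 36kb set and all 17 in the set of both deletions were written with the lower coordinate first in every deletion file, the order that no WT or Ezh2cKO file uses for such pairs. Gains in the 36kb set with an end that is no bait included Ring1 with chr17:35293877-35294077 (1258 kb away), with chr17:35294673-35298890 (1261 kb) and with chr15:36174037-36174345, each in 4 of 4 36kb and 0 of 8 E11.5 WT libraries. H2-D1 with chromosome 14 is described below. The remaining such gains, a bait at Ier3 and Flot1 with a fragment 86.7 kb away and an unnamed bait with a fragment 114 kb away, were also present in 4 and 3 of the 8 E11.5 WT libraries, from other tissues than Md and PA2.

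By stage, 34 of 708 pairs were present in 7 or 8 of 8 E11.5 WT libraries and in neither E8.5 library (background 11.4%) and 109 in both E8.5 libraries and in 0 or 1 of 8 E11.5 WT libraries (background 18.8%). The pairs of E8.5 had a median distance of 221 kb with a maximum of 30941 kb, and those of E11.5 165 kb with a maximum of 1714 kb. The E11.5 pairs included Lsm2 with Atp6v1g2, a proton pump subunit gene, in 7 of 8 WT and 8 of 8 Ezh2cKO libraries, and D17H6S56E-5 with the same fragment in 8 of 8 libraries of both WT and Ezh2cKO.

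No bait of the region was absent from a genotype, meaning 0 calls in all its libraries with a mean of at least 5 in another, among 85 baits (background 0.732%). No end that is no bait was absent among 58 (background 4.03%).

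Called pairs with 1 place on chromosome 14 were more numerous in every Ezh2cKO and 36kb library than in any other library. Its fragments, and the 4 baits below, were picked after their values were seen. The neighbouring fragments chr14:8734056-8735897 and chr14:8735910-8736125 were listed 51 and 52 times over the series, each time with a bait of this region and never with their own chromosome. The sequences of these fragments were not compared with the H2-D1 end of the region. Whether their reads were placed at the right position was thus not tested. Their pairs numbered 0 in each of the 8 E11.5 WT libraries and 3 and 2 at E8.5. In Ezh2cKO they numbered 7, 11, 8, 6, 7, 8, 10 and 5 (7.75 ± 1.98, SD, n = 8), in 36kb libraries 10, 11, 5 and 10 (9 ± 2.71, n = 4) and in both 42kb libraries 0. All Ezh2cKO and 36kb libraries lay above all other libraries.

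Most of these pairs started from 4 neighbouring baits, of which the last holds H2-D1. They are chr17:35242325-35245129, chr17:35246457-35252342, chr17:35252343-35257391 at a boundary of Ddx39b, a helicase gene, and chr17:35258280-35268762 with H2-D1. H2-D1 met chr14:8735910-8736125 in 8 of 8 Ezh2cKO and 4 of 4 36kb libraries and in 0 of the other 12, with a median score of 22.9. It met the neighbouring fragment in 7 of 8 Ezh2cKO and 3 of 4 36kb libraries and in no other. The first of these baits met chr14:8734056-8735897 in 2 of 2 E8.5, 8 of 8 Ezh2cKO and 3 of 4 36kb libraries.

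The 4 baits together had 0.25 ± 0.463 pairs with other chromosomes a library in E11.5 WT (0 or 1 in each), 8.25 ± 1.28 in Ezh2cKO (7 to 10), 8.75 ± 2.87 in 36kb (5 to 12), 3 and 4 in 42kb and 5 and 5 at E8.5. The E11.5 WT libraries lay below all others. The remaining 88 baits had 10 ± 1.07 in E11.5 WT, 14 ± 4.11 in Ezh2cKO, 16.8 ± 2.99 in 36kb, 18 and 18 in 42kb and 13 and 9 at E8.5, and there Ezh2cKO (8 to 21) overlapped E11.5 WT (8 to 11). A pair of other ends was likewise listed only with baits of the region, chr4:61898924-61899480 (12 times) and a chromosome 9 fragment that starts at 42854193 (9 times), both in 3 Ezh2cKO and 3 36kb libraries with 1 of the 4 baits. In the opposite direction, Psmb8 met chr4:149649091-149651042 in 5 of 8 E11.5 WT libraries and in 0 of the other 16.

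Chromosome 14 pairs were thus present in all tissues of Ezh2cKO and 36kb embryos, absent from all 4 tissues of E11.5 WT embryos, and present at a low number in WT cells of E8.5. These pairs numbered 5 to 11 in the Ezh2cKO files and 5 to 11 in the 36kb files, and 0 in the E11.5 WT and 42kb files. Genotype, strain background at this variable region and file preparation cannot be told apart with these libraries. Their part in the results, and that of the order of writing, was not tested.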

How the data were processed

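Cells were cross-linked, digested with HindIII and captured at promoters, per the labels' protocols. The authors deposited 1 text file a library with called pairs of fragments and a score, at least 5 in every file, and coordinates are in GRCm38 (mm10) per the submitters' processing notes. Aligner and caller: not given in the sources used here. Samples were grouped by their titles, since the genotype field of 1 PA2 36kb library holds the title of another sample. Pairs were counted per bait and library in Python 3.11.15 (pandas 2.3.3), and differences were tested with limma 3.58.1 in R 4.3.3 (lmFit, eBayes with trend, 12 group means, two-sided), checked on simulated data. The text names the largest changes past the threshold (up to 10 each way), the 10 baits with most calls, a fixed set of known genes, and up to 10 pairs per presence rule by score. Score minimum, pseudocount, filter, scaling, bait position, distance, replicate block and single libraries left out were tried as alternatives. Members and lists were chosen with earlier results of these data known. Promoters matched by symbol came from RefSeq, GRCm38.p6. The numbers of reads are unknown, so no counting interval is given.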

Additional observations from a re-analysis of the deposited data

Results flagged for a closer look

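Pairs with other chromosomes lie outside the tested cis counts, and they showed a signal above the WT level. Calls between baits of the region and 2 adjoining chromosome 14 fragments averaged 7.75 a library in Ezh2cKO (5 to 11, n = 8) and 9 in 36kb libraries (5 to 11, n = 4), against 0 in each of 8 E11.5 WT libraries, 2 and 3 at E8.5 and 0 in both 42kb libraries. The part of genotype, mouse line, file preparation and read placement was not tested.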

How the results depend on the processing

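No single bait past the threshold reversed its direction under an alternative. Of their values, 364 stayed past the threshold and 114 did not. Of the counts and shares over the region, 236 stayed within the range that counts as unchanged and 64 moved. For counts and shares the direction of a move was not recorded, and the local share given below changed its order between groups. Both tallies include a setting with baits wholly inside the region, which could change nothing because none crosses an edge. The counts also include leaving out libraries outside a contrast, which alters the estimated spread and not the difference. The tallies are thus a record of the settings tried. Baits past the threshold from E8.5 to E11.5 (9) were 5 with a score of at least 7, 4 with at least 10, 5 with the bait in the first position only and 4 with partners that are no bait. Those of Ezh2cKO (3) were 1, 0, 1 and 1 in the same order, 5 with cis pairs under 1 Mb and 1 with pairs of 2 baits kept only where the higher coordinate is listed first. Those of the 36kb deletion (11) were 4 and 5 at the higher scores (2 of the 5 rose), 23 without division by the total, 1 with partners that are no bait and 33 with the higher coordinate first, which by construction removes pairs from the deletion files alone. Those of the 42kb deletion (2) were 1 with the first position only and 4 with the higher coordinate first. Between the deletions (0), 2 passed at a score of at least 7, Brd2 among them, and 3 with the higher coordinate first. Apart from the last, the cause was not tested. The settings on partners that are no bait and on listing order were chosen after seeing the data.

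Leaving out 1 library at a time gave 0 to 9 baits by stage, 0 to 4 for Ezh2cKO, 6 to 15 for 36kb, 1 to 3 for 42kb, 0 to 2 between deletions (1 without PA2 36kb replicate 1 or either 42kb library, 2 without PA2 36kb replicate 2), and 0 to 0 for tissues and for Ezh2cKO by tissue. For 42kb it was 1 without either PA2 WT library and 3 without Md 36kb replicate 1. With the replicate block the counts were 8, 3, 11, 2 and 0, and 0 for both tissue tests. Over 66 pairs of groups the median correlation of same-numbered libraries was 0.0038, and 1 was over 0.1, Md 36kb with PA2 36kb (0.158), whose first replicates list 616 and 606 pairs of the region and second 793 and 841. The numbers were not taken as pairs.

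Pairs by presence, at a score of at least 7 and at least 10: lost in Ezh2cKO 0 and 0 (from 5), lost in 36kb 26 and 18 (49), gained in 36kb 16 and 14 (25), E11.5 only 10 and 6 (34), E8.5 only 62 and 17 (109). At a score of at least 10, 2 pairs were gained in Ezh2cKO (11), 10 lost in both deletions (25) and 10 gained in both (18). With the higher coordinate first, 6 were gained in 36kb, 49 lost in both deletions and 1 gained in both. The local share was 61.3%, 63.8%, 69.2%, 73.3% and 68.8% within 250 kb at E8.5 and in E11.5 WT, Ezh2cKO, 36kb and 42kb, and 49.4%, 42.5%, 45.99%, 31.7% and 44.2% within 100 kb at a score of at least 10. In the main setting the share within 100 kb was 35.4% in E11.5 WT and 39.3% in 36kb libraries. The 36kb share thus went from the highest of these sets to the lowest at a score of at least 10. Read depth is unknown, so a pair that is not listed may be present below the score minimum.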
